A study of Homo sapiens with 6 samples.

Results

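The MHC class II genes and their invariant chain were described in SK-Hep1 cells after knockdown of YAP1 and TAZ. The set held 10 genes, namely CD74, CIITA, HLA-DRA, HLA-DRB1, HLA-DPA1, HLA-DPB1, HLA-DMA, HLA-DMB, HLA-DOA and HLA-DQA1. Every probe whose annotated symbol was one of these names was taken. This gave 12 probes for 9 genes, of 20046 named genes with a probe on the array, and HLA-DQA1 was not analysed here because no probe carried its name. The genes had been picked for their difference between the knockdown and control arrays of these same data. Their changes are therefore given as a description, with no test.

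SK-Hep1 is an established human cell line, labelled as hepatic adenocarcinoma. In the knockdown group, cells were transfected for 3 days with siRNA against YAP1 together with siRNA against TAZ, the protein of the gene WWTR1. In the control group the cells received a control siRNA that the sample descriptions name siLuc. Each group had 3 samples, and the total RNA of each was read on one Illumina bead array with 47231 probes. Whether replicates are separate cultures is not stated in the labels, and p-values then cover only the spread among these 6 samples, which could be technical. A single cell line was used, and the labels do not give the number of siRNA sequences per target.

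YAP1 and TAZ are transcriptional co-activators restrained by the Hippo kinases. MHC class II molecules are pairs of an alpha and a beta chain that present peptides from endosomes to CD4+ T cells. The invariant chain, encoded by CD74, binds new class II pairs in the endoplasmic reticulum, fills their peptide groove and directs them to endosomes. There proteases trim it to a short peptide called CLIP, and HLA-DM exchanges CLIP for antigenic peptide under the restraint of HLA-DO. Transcription of these genes is switched on largely by the co-activator CIITA, which dendritic cells and B cells make constitutively and which many other cells, liver endothelium and tumour lines included, make after interferon-gamma. CIITA does not bind DNA itself. It docks on RFX, CREB and NF-Y factors that sit on a conserved promoter module of the S, X and Y boxes.

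Both siRNA targets were lower in knockdown cells. YAP1 had intensities of 307.4, 286 and 324.5 on the knockdown arrays, against 2273, 1906 and 2130 on the control arrays, and was 5.32-fold lower (adjusted p = 2.43e-08, limma with Benjamini-Hochberg adjustment). WWTR1 had 56, 63.16 and 69.33 on the knockdown arrays, all below the detection threshold, against 233.2, 177.5 and 222.1 on the control arrays, and was at least 2.38-fold lower (adjusted p = 6.94e-07). Detection was estimated from each array's own intensity distribution, and 13849 to 17017 probes per array exceeded it, with thresholds of 75.64 to 125.1. A probe was tested if detected on at least 3 of the 6 arrays, which held for 16091 probes of 9802 named genes. Arrays of the same group correlated at r of at least 0.99, and arrays of different groups at no more than 0.945. Of the tested genes, 27.2% were higher and 27.3% lower in knockdown cells past an adjusted p of 0.05.

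Promoter sequence was looked at for the letters that class II genes are known to share. The X core was searched as ACNGATG and the Y core, the inverted CCAAT box that NF-Y binds, as ATTGG, on both strands in the 250 bases before each RefSeq gene start on GRCh38.p14. Of the 10 genes, 8 had an entry in the promoter table, with 9 windows because HLA-DPA1 had 2, and HLA-DRA and CIITA had none. The Y core stood in 7 of the 9 windows, against 32.0% of 35116 windows of all genes, and the X core in 4, against 6.35%. The Y core is common, and a match in letters alone is a description, not a binding site. The 6 stretches of 150 bases below end at the base before the gene start, run 5′ to 3′ along the gene's strand, and have both cores in capitals. They are shown because they set the promoters with both cores beside those with the Y core alone.
HLA-DRB1: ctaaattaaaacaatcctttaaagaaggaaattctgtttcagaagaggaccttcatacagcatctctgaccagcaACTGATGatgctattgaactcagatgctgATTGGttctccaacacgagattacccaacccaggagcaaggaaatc
HLA-DMA: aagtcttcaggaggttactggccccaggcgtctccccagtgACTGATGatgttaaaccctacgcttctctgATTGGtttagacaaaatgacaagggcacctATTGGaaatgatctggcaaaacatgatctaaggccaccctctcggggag
HLA-DMB: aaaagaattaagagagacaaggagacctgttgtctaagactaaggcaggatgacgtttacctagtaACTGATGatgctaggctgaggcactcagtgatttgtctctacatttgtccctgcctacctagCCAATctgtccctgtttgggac
CD74: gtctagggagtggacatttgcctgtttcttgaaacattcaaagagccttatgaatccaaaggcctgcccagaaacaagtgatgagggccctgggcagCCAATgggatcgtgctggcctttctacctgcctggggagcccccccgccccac
HLA-DOA: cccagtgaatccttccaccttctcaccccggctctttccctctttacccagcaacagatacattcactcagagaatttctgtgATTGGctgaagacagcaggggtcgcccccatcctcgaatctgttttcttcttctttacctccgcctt
HLA-DPB1: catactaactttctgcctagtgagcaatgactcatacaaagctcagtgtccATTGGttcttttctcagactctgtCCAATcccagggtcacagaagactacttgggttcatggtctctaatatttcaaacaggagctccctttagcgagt
The HLA-DRB1 stretch is chr6:32589849-32589998 and that of HLA-DMA chr6:32953098-32953247, both on the minus strand. HLA-DMB is chr6:32941029-32941178, CD74 is chr5:150412911-150413060 and HLA-DOA is chr6:33009592-33009741, all minus, and HLA-DPB1 is chr6:33075840-33075989 on the plus strand.

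In HLA-DRB1 and HLA-DMA an X core was followed on the same strand by a Y core, with starts 29 and 30 bases apart. In HLA-DMB the X core stood 84 bases before the start and the Y core, on the other strand, 22 bases before it. In CD74 the Y core stood on the other strand 53 bases before the start, and an X core on the other strand 209 bases before it, outside the printed stretch. HLA-DOA and HLA-DPB1 held only Y cores, and HLA-DQA1 did too. Neither core was found in the HLA-DPA1 windows. An X core followed by a Y core at 28 to 31 bases occurred in 10 of the 35116 windows (0.0285%), and 4 of the 10 belonged to class II genes: HLA-DRB1, HLA-DMA, HLA-DQB1 and HLA-DRB5. This spacing was chosen after these windows had been seen, so its count carries no test. The probes of HLA-DQB1 and HLA-DRB5, which have the pair, lay at background on all arrays. That of HLA-DPA1, without an exact match to either core, was above it on all arrays. An exact search misses diverged boxes, and a probe at background may miss the line's own allele. Whether the cores bear on these levels was not tested.

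Intensities are the deposited bead intensities, in the order of replicates 1, 2 and 3. A change is the log2 value in knockdown cells minus that in control cells, after background correction and quantile normalisation, with the standard error (SE) of the fit, and a fold is its power of 2. Intensity ratios stand beside several folds, because the deposited values are not normalised between arrays. For bright probes the gap between ratio and fold came with quantile normalisation, since without background correction the change was still 2.55 for the brightest CD74 probe and 1.77 and 1.79 for HLA-DRA. In bulk RNA, more cells making a transcript and more transcript per cell cannot be told apart.

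CIITA, the master co-activator, stayed near background. Its probe ILMN_1773363 read 75.09, 85.66 and 82.79 in knockdown cells, against 82.13, 75.06 and 76.74 in control cells. The groups overlapped, and the probe was detected on 1 knockdown array and on 0 control arrays. After normalisation the knockdown arrays lay above the control arrays by 0.34, a difference between values that are mostly under the detection threshold. The array therefore gave no usable level for CIITA in either group.

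CD74 was the member with the largest difference. Its brightest probe, ILMN_1736567, read 4839, 4981 and 5383 in knockdown cells, against 1301, 1087 and 1102 in control cells. The groups were far apart and each was tight, with means of 5068 ± 282 in knockdown cells and 1163 ± 119 in control cells (SD, n = 3 each), a 4.36-fold ratio of intensities. On the normalised log2 scale the means were 12.48 ± 0.0974 in knockdown cells and 9.90 ± 0.103 in control cells, a change of 2.58 (SE 0.103) or 5.98-fold. Among 9802 tested genes only 15 had a larger rise, a place that the choice of the gene already favoured. The other probes went the same way. ILMN_2379644 read 2155, 2310 and 2402 in knockdown cells, against 724.6, 573.6 and 606.1 in control cells, and was 5.09-fold higher. ILMN_1761464 read 238.4, 286.8 and 341.6 in knockdown cells, against 61.85, 49.58 and 72.6 in control cells, where it was below detection on all 3 arrays. Its difference is therefore a bound, at least 3.93-fold higher in knockdown cells.

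HLA-DRA encodes the single, nearly invariant alpha chain of the DR molecule. Probe ILMN_2157441 read 3973, 3627 and 4357 in knockdown cells, against 1663, 1535 and 1568 in control cells. Probe ILMN_1689655 read 2452, 2576 and 2730 in knockdown cells, against 1102, 974.9 and 1004 in control cells. Neither pair of groups overlapped, and both probes gave nearly the same change, 1.79 (SE 0.102) and 1.81 (SE 0.103), or 3.45-fold and 3.51-fold. The fold of the deposited intensities was smaller, 2.51 and 2.52.

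HLA-DRB1 encodes a beta chain that pairs with HLA-DRA. Its probe ILMN_1715169 read 375.6, 431.9 and 453 in knockdown cells, against 250.9, 212.4 and 244.6 in control cells. The groups did not overlap, and the change, 1.31 (SE 0.104) or 2.48-fold, was the smallest among the members with a tested probe. The intensity ratio was 1.78. DRB genes and pseudogenes are close copies of one another and individuals carry different sets of them. Probe sequences were not used here, so how far this probe reads other DRB transcripts, or misses the line's own allele, was not tested.

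HLA-DPA1 encodes the alpha chain of DP. Its probe ILMN_1772218 read 2201, 2023 and 2593 in knockdown cells, against 856.6, 700.5 and 803.5 in control cells, with no overlap. The change was 2.02 (SE 0.0967), or 4.05-fold. The partner beta chain was not seen. The HLA-DPB1 probe ILMN_1749070 read 53.04, 50.33 and 51.7 in knockdown cells, against 43.9, 51.04 and 57.19 in control cells, below detection on all 6 arrays and overlapping. A probe that does not match the line's allele and an absent transcript cannot be told apart here.

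HLA-DM, the peptide exchange catalyst, had both chains higher in knockdown cells. The alpha chain probe, HLA-DMA ILMN_1695311, read 979.1, 815.2 and 1064 in knockdown cells, against 403, 406.4 and 430.3 in control cells, a change of 1.70 (SE 0.116) or 3.24-fold. The beta chain probe, HLA-DMB ILMN_1761733, read 536.5, 471.3 and 685.7 in knockdown cells, against 213.4, 185.3 and 210.2 in control cells, a change of 1.97 (SE 0.121) or 3.92-fold. No knockdown array came near a control array in either chain. The HLA-DO alpha chain, HLA-DOA ILMN_1659075, read 74.48, 70.55 and 91.04 in knockdown cells, against 66.96, 65.47 and 67.18 in control cells. It was detected on 1 knockdown array and on 0 control arrays, so the modulator of HLA-DM had no usable level.

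**Figure D1:**
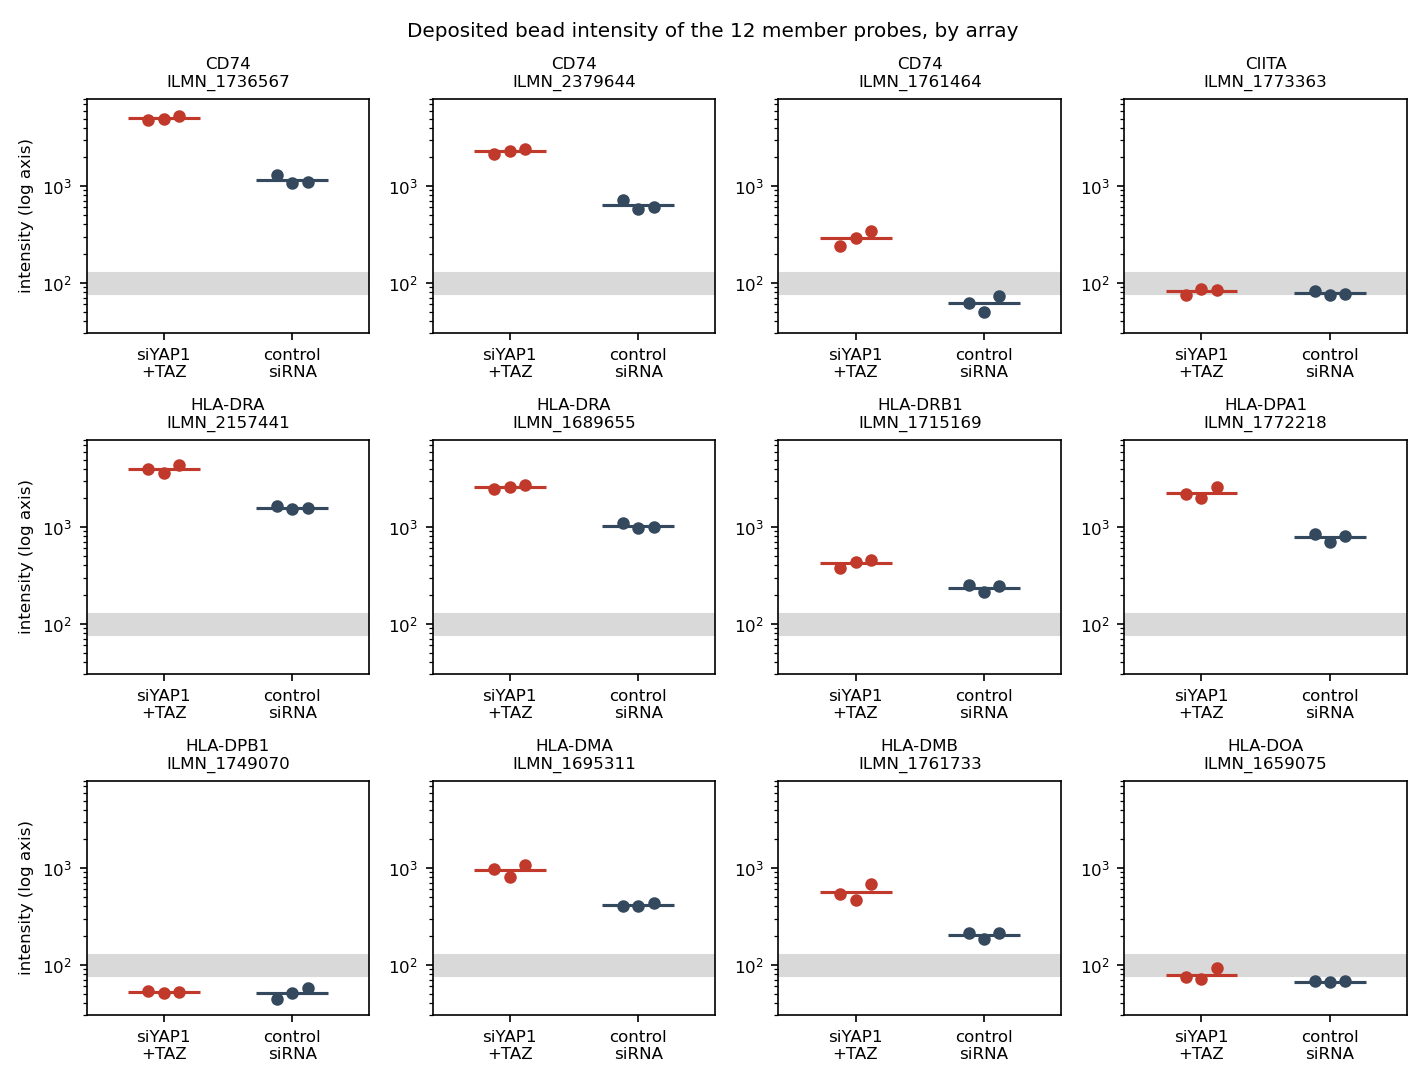
Deposited bead intensity (log axis) of the 12 probes of the 9 genes, one panel per probe, for the 3 arrays of siYAP1+TAZ cells and the 3 arrays of control siRNA cells. Points are arrays, horizontal lines are group means, and the grey band spans the arrays' detection thresholds of 75.64 to 125.1. The 9 tested probes have knockdown arrays above all control arrays, while CIITA, HLA-DPB1 and HLA-DOA lie in or under the band.

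Across the members, 9 of 12 probes passed the detection filter, for 6 of the 9 genes. All 9 had the knockdown arrays above the control arrays and a fitted difference of at least 2-fold, beside 29.8% of all tested probes with such a separation and 5.07% of tested genes at least 2-fold higher. Nothing is read from this count, because the genes were picked on this contrast and a gene off in control cells could pass the filter only by being high after knockdown. On normalised values the CIITA probe was separated too, which made 10 of the 12 probes, beside 14.7% of all probes on the array. The 3 probes that failed the filter are CIITA, HLA-DPB1 and HLA-DOA. The order of gene changes was CD74, HLA-DPA1, HLA-DMB, HLA-DRA, HLA-DMA and HLA-DRB1. HLA-DPA1 and HLA-DMB differed by less than the standard error of either, and so did HLA-DRA and HLA-DMA. HLA-DRB1 lay apart from the others at the low end and CD74 at the high end.

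The arrays within a group showed a common pattern in the deposited values. Knockdown replicate 3 was the highest knockdown array in 9 of the 9 tested probes, and control replicate 2 the lowest control array in 8. After normalisation, knockdown replicate 3 was the highest in 5 and replicate 2 in 4. Under scaling of the arrays to a common median, in place of quantile normalisation, the median change of all tested genes was -0.106. Relative to that median the members' changes were 2.53 for the brightest CD74 probe, 1.72 and 1.73 for HLA-DRA, 1.27 for HLA-DRB1, 1.93 for HLA-DPA1, 1.62 for HLA-DMA and 1.94 for HLA-DMB. The direction of each tested member was thus the same under either scaling.

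**Figure D2:**
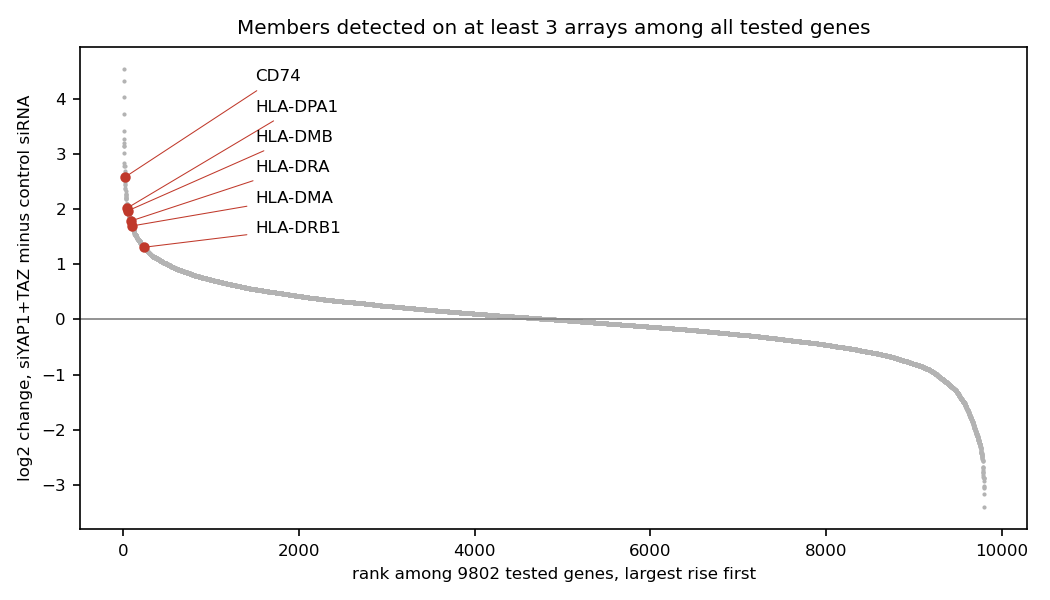
Log2 change, siYAP1+TAZ minus control siRNA, of 9802 tested genes against their rank from the largest rise to the largest fall. Red points are the 6 members detected on at least 3 arrays, with CD74 at rank 16, HLA-DPA1 at 42, HLA-DMB at 53, HLA-DRA at 85, HLA-DMA at 103 and HLA-DRB1 at 236.

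Other class II chains show what the related probes read. Of 8 further chain genes and pseudogenes listed, 7 had a probe and 3 were tested. All 3 rose in knockdown cells, beside 27.2% of all tested genes. HLA-DRB3, an additional DR beta chain of some haplotypes, read 1308, 1188 and 1390 in knockdown cells, against 1116, 719.7 and 1082 in control cells. Its change of 0.94 (SE 0.114) was 1.92-fold (adjusted p = 4.47e-05). HLA-DRB4, the DR beta chain of other haplotypes, read 1714, 2059 and 1822 in knockdown cells, against 1017, 796.9 and 1073 in control cells with probe ILMN_1752592, and was 2.76-fold higher (adjusted p = 3.84e-06). The other HLA-DRB4 probes did not show this. ILMN_1679617 gave 76.82, 75.87 and 97.29 in knockdown cells, against 139.1, 88.45 and 96.43 in control cells (log2 change -0.18, adjusted p = 0.452), and ILMN_2159694 was near background in both groups. A gene whose probes disagree in this way has no settled level.

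HLA-DRB6 is a pseudogene that sits between DRB genes, and both of its probes were well above background. ILMN_2066066 read 1535, 1667 and 1591 in knockdown cells, against 799.6, 700.8 and 980.3 in control cells, 2.77-fold higher (adjusted p = 4.37e-06). ILMN_2066060 read 633.4, 650.8 and 658.4 in knockdown cells, against 386.9, 328.3 and 337.1 in control cells, 2.59-fold higher (adjusted p = 9.22e-07). HLA-DRB5, HLA-DQB1, HLA-DQA2 and HLA-DOB were below detection on all arrays, as was the pseudogene HLA-DPB2, and HLA-DQB2 was not analysed here. The brightest probe of each of HLA-DRB1, HLA-DRB3, HLA-DRB4 and HLA-DRB6 read higher in knockdown cells. These probes may read shared DRB sequence, so the 3 rises counted among the other class II chains may not be of separate genes.

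**Figure D3:**
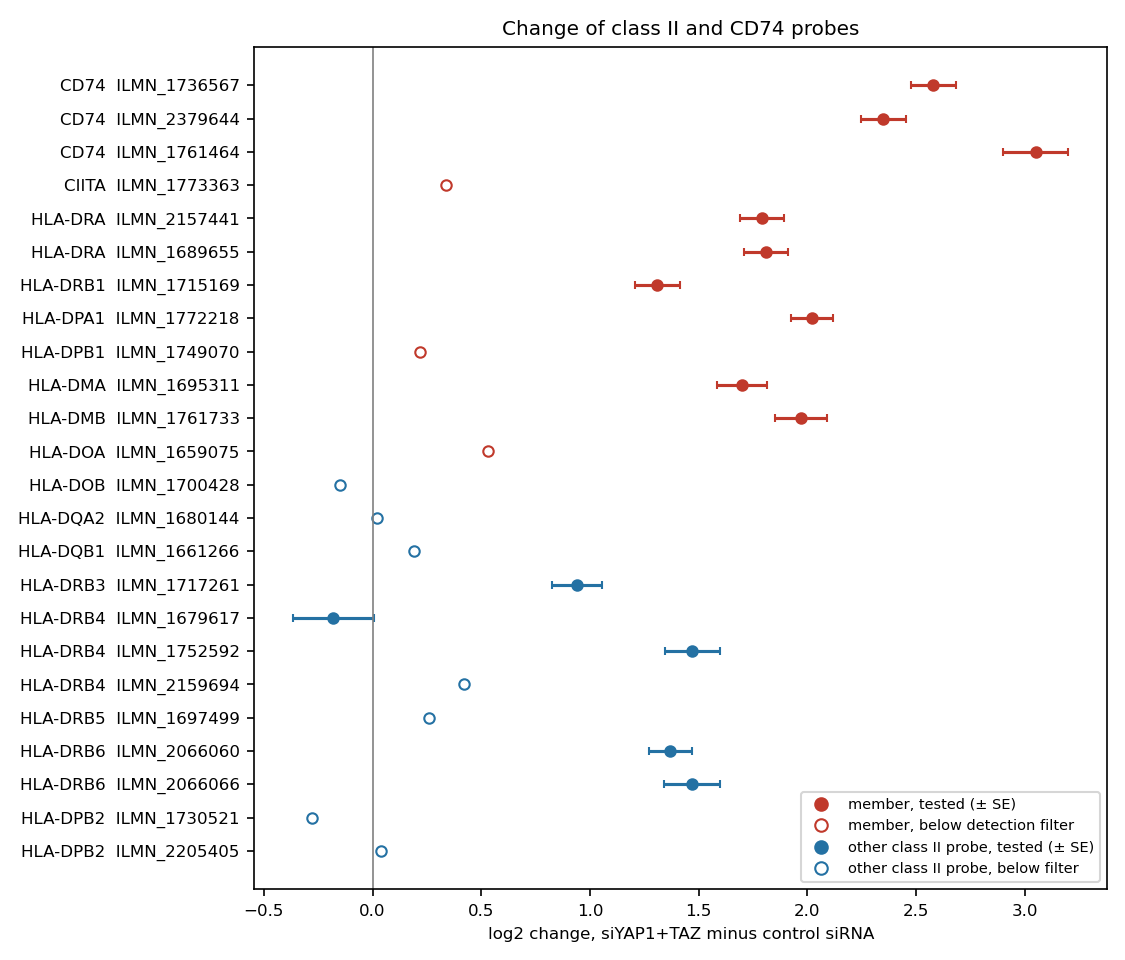
Log2 change, siYAP1+TAZ minus control siRNA, of every probe of the members (red) and of the other class II genes and pseudogenes (blue). Filled points are tested probes with their standard error and open points are probes below the detection filter. The dimmest CD74 probe is below detection on all control arrays, so its plotted 3.05 depends on the background correction, and of the 3 HLA-DRB4 probes 1 lies at 1.47 and the others at 0.42, below the detection filter, and at -0.18.

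Of 11 transcription factors and co-activators tested, 3 rose, 1 fell and 7 did not pass the test. Over all 9802 tested genes 27.2% rose and 27.3% fell, so the share of rises was near that of all genes. The median change was 0.14, beside a median of 0 over all tested genes. RFX5, RFXANK and RFXAP form the RFX complex that binds the X box. RFXANK rose by 0.45 (adjusted p = 0.00204) and RFX5 by 0.31 (adjusted p = 0.0213), while RFXAP had a change of -0.11 (adjusted p = 0.421). KAT2B, an acetyltransferase that works with CIITA, rose by 0.40 (adjusted p = 0.00952), and NFYB, a subunit of NF-Y, fell by 0.31 (adjusted p = 0.0269). The NFYB probe averaged 89.49 in knockdown cells and 124.4 in control cells, near the detection thresholds. The calls for RFX5, RFXANK and KAT2B depend on the normalisation. In deposited intensity RFX5 averaged 700.7 in knockdown cells and 791.2 in control cells, lower where the normalised value was higher, and the means of RFXANK and KAT2B were slightly lower there too. Under median scaling none of the 4 passed, with RFXANK at 0.25 (adjusted p = 0.322), KAT2B at 0.25 (adjusted p = 0.314), RFX5 at 0.09 (adjusted p = 0.739) and NFYB, whose change stayed as large, at -0.30 (adjusted p = 0.214). NFYC, another NF-Y subunit, had a change of -0.26 (adjusted p = 0.068), passed as lower under median scaling (-0.46, adjusted p = 0.0434) and did so without control replicate 3 (-0.36, adjusted p = 0.0179). RFX5 did not pass without control replicate 1 (adjusted p = 0.0863), knockdown replicate 1 (0.0634) or knockdown replicate 3 (0.0516). NFYB did not pass without control replicate 1 (0.0825), control replicate 2 (0.0785) or knockdown replicate 2 (0.0783).

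On the interferon-gamma route that leads to CIITA, 7 of the 9 tested genes rose and the other 2 did not pass. Among all tested genes 27.2% rose. The median change was 0.61, beside 0 over all tested genes. IFNGR2 and IFNGR1, the receptor chains, averaged 4041 ± 368 and 340.3 ± 18.9 in knockdown cells, against 2533 ± 164 and 275.5 ± 46.6 in control cells (SD, n = 3 each). They rose by 2.15-fold (adjusted p = 9.91e-06) and 1.68-fold (adjusted p = 0.000178). IRF2, a factor of the CIITA promoter that interferon-gamma uses, averaged 226.2 ± 37.2 in knockdown cells and 114.1 ± 24.8 in control cells and rose 2.79-fold (adjusted p = 1.23e-05), with its other probe at 1.56-fold. IRF1, the factor that interferon-gamma induces, read 308.8, 280.8 and 360.6 in knockdown cells, against 249.1, 244.4 and 343.3 in control cells. The deposited intensities of IRF1 overlapped, and the fitted rise was 1.53-fold (adjusted p = 0.00491). SOCS1, a feedback inhibitor of the receptor kinases, rose 1.72-fold (adjusted p = 7.05e-05), SOCS3 by 0.56 (adjusted p = 0.00442) and JAK1 by 0.52 (adjusted p = 0.0158, 0.153 under median scaling and 0.0609 without control replicate 2). JAK2 and PTPN2, a phosphatase of the route, did not pass with their brightest probes, at -0.17 (adjusted p = 0.374) and -0.20 (adjusted p = 0.107), though without control replicate 3 JAK2 fell by 0.36 (adjusted p = 0.0407). JAK2 averaged 80.7 in knockdown cells and 104.4 in control cells, near the detection thresholds. Another PTPN2 probe fell by 0.72 (adjusted p = 8.64e-05).

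Most of the genes listed for invariant chain cleavage and antigen processing rose. Of 12 genes tested, 11 rose and 1 fell, beside 27.2% and 27.3% of all tested genes. The median change was 0.71, and 7 of the 11 rises remained under median scaling. CTSD, the aspartic protease cathepsin D, read 1452, 1362 and 1680 in knockdown cells, against 567.4, 459.3 and 476.8 in control cells, 4.25-fold higher (adjusted p = 7.12e-08). The cysteine protease CTSF averaged 321.7 ± 34.7 in knockdown cells and 205.3 ± 38.9 in control cells (SD, n = 3 each) and rose 2.15-fold (adjusted p = 1.03e-05). CAPG, an actin-capping protein that shares its list with the enzymes, rose 1.98-fold (adjusted p = 7.14e-06). CTSH, another cathepsin, and CST3, the cathepsin inhibitor cystatin C, each rose 1.71-fold (adjusted p = 0.000135 and 0.000285). CTSV, a protease close to cathepsin L, went the other way, with means of 110.5 ± 13.2 in knockdown cells and 229 ± 32.5 in control cells and a fall of 1.83-fold (adjusted p = 9.74e-05). CTSS, which makes the last cut that leaves CLIP in antigen-presenting cells, was below detection on all arrays, at 42.49, 44.49 and 42.91 in knockdown cells and 47.83, 48.04 and 41.67 in control cells.

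Genes of class II traffic and turnover were mixed. Of 7 tested, 5 rose, 1 fell and 1 did not pass, with a median of 0.36. Among all tested genes 27.2% rose and 27.3% fell. AP2M1, a subunit of the adaptor that takes cargo in at the plasma membrane, rose 1.83-fold (adjusted p = 0.000119). CD82, a tetraspanin of class II compartments, rose 1.75-fold (adjusted p = 0.000881), and the lysosomal membrane proteins LAMP2 and LAMP1 rose 1.52-fold (adjusted p = 0.00244) and 1.28-fold (adjusted p = 0.0126). The other LAMP2 probes, all dimmer, rose by more, from 1.73-fold to 2.48-fold. AP1M1, the corresponding subunit of the adaptor at the trans-Golgi, read 664.7, 538.9 and 689 in knockdown cells, against 1411, 1247 and 1398 in control cells, and fell 1.55-fold (adjusted p = 0.000499). VPS41, of the complex that fuses endosomes with lysosomes, rose by 0.28 (adjusted p = 0.023) with its brightest probe. Its other tested probes disagreed, at 0.65 (adjusted p = 0.000629), 0.02 (0.871) and -0.06 (0.8). With the mean of its probes VPS41 did not pass (0.23, adjusted p = 0.0738). Under median scaling LAMP1 (adjusted p = 0.369) and VPS41 (adjusted p = 0.807) did not pass. VPS41 also missed the threshold without control replicate 1 (0.074), control replicate 2 (0.0502), knockdown replicate 1 (0.0558) or knockdown replicate 3 (0.057). MARCHF1 and MARCHF8, the ubiquitin ligases that remove class II from the surface, were below the detection filter.

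CD74 is also a surface receptor for the cytokine MIF, with CD44 as its signalling partner. CD44 averaged 14440 ± 227 in knockdown cells and 10200 ± 1200 in control cells (SD, n = 3 each) and rose 1.62-fold (adjusted p = 0.000452), with its other probes at 1.85-fold and 3.99-fold. The ligands MIF and its relative DDT did not pass the test, with changes of 0.06 (adjusted p = 0.648) and 0.12 (adjusted p = 0.309). The co-receptors CXCR2, CXCR4 and ACKR3 were below the filter.

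**Figure D4:**
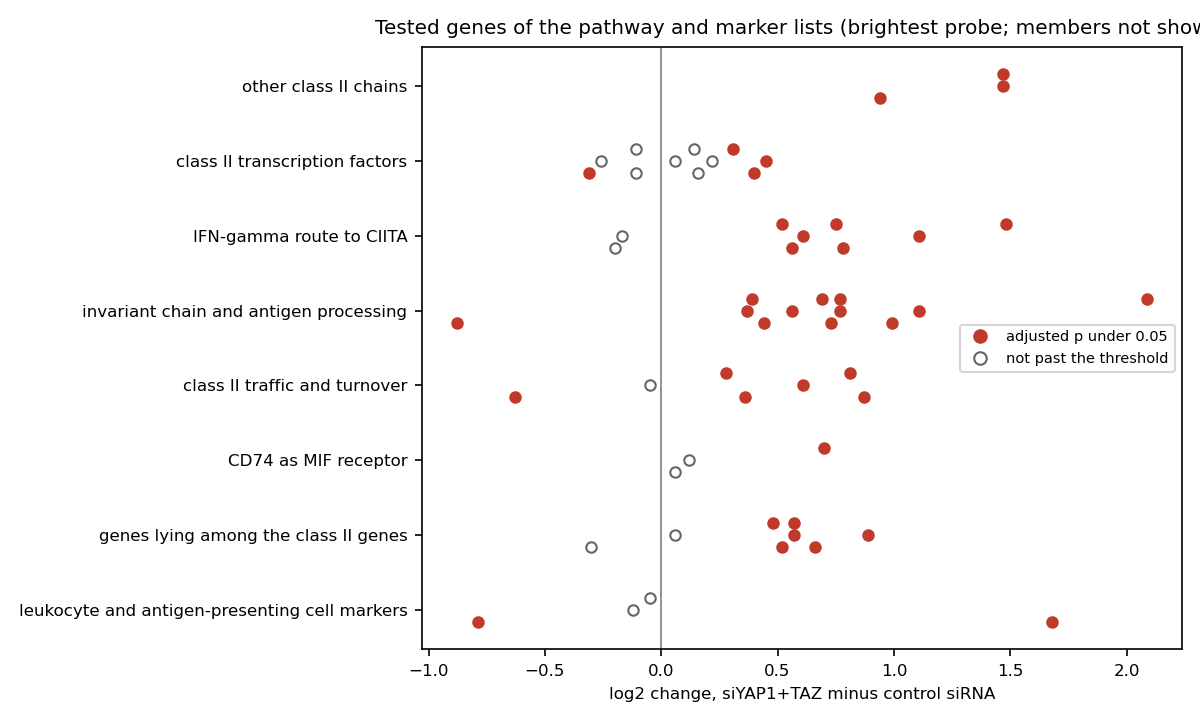
Log2 change, siYAP1+TAZ minus control siRNA, of the tested genes of each list, one point per gene by its brightest detected probe, with the members left out. Filled points pass an adjusted p of 0.05 in the limma fit over all tested probes. Antigen processing genes lie mostly to the right, with CTSD at 2.09, and the transcription factors lie near 0.

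Over the lists described so far and that of the neighbouring genes on chromosome 6, 7 lists were counted. In them 36 of 53 tested genes rose and 3 fell, beside 27.2% and 27.3% of all tested genes. The 36 include HLA-DRB3, HLA-DRB4 and HLA-DRB6, whose probes may read shared DRB sequence. Of the 39 calls, 7 went against the mean of the deposited intensities (KAT2B, RFX5, RFXANK, CTSL, LGMN, LAMP1 and VPS41), all of them rises under 0.50 on the log2 scale. Under median scaling 22 of the 53 rose and 4 fell. The lists were assembled with results of these data known, so the counts describe them and no test was made of the lists.

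The class II genes lie next to one another on chromosome 6, interleaved with genes that have other roles, and CD74 lies on chromosome 5. In the RefSeq order, HLA-DRA, HLA-DRB1, HLA-DMB, HLA-DMA and HLA-DPA1 had changes of 1.79, 1.31, 1.97, 1.70 and 2.02. Of 8 tested genes listed as lying among or beside them, 6 rose and 2 did not pass, with a median of 0.54. Among all tested genes 27.2% rose. SLC39A7, between RXRB and HSD17B8 but not in the list, had a change of 0.19. PSMB9 and PSMB8, subunits of the immunoproteasome that feeds class I, rose 1.85-fold (adjusted p = 3.45e-05) and 1.49-fold (adjusted p = 0.00188). TAP1, a chain of the peptide transporter for class I, rose 1.49-fold (adjusted p = 0.00052), while TAP2, the other chain, had a change of -0.30 (adjusted p = 0.0554). HSD17B8, a hydroxysteroid dehydrogenase, rose 1.57-fold (adjusted p = 0.00471). BRD2, a bromodomain protein whose gene lies between HLA-DMA and HLA-DOA, had a change of 0.06 (adjusted p = 0.719). Under median scaling PSMB9 and HSD17B8 still passed, and TAP2 fell by 0.45 (adjusted p = 0.0483). The rises of TAP1 (adjusted p = 0.144), PSMB8 (0.131), RING1 (0.245) and RXRB (0.115) did not pass there. TAP2 also passed as lower when knockdown replicate 2 was left out (adjusted p = 0.0288) and when control replicate 3 was (adjusted p = 0.0429). It passed too without background correction (0.0459), with an offset of 50 (0.0417) and with the authors' values (0.0435). The same held when detection on all 6 arrays was required (0.0438). TAP2 did not pass under the remaining alternatives. Its other, dimmer tested probe, ILMN_1759250, had a change of -0.01 (adjusted p = 0.925), so the fall rests on 1 probe.

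**Figure D5:**
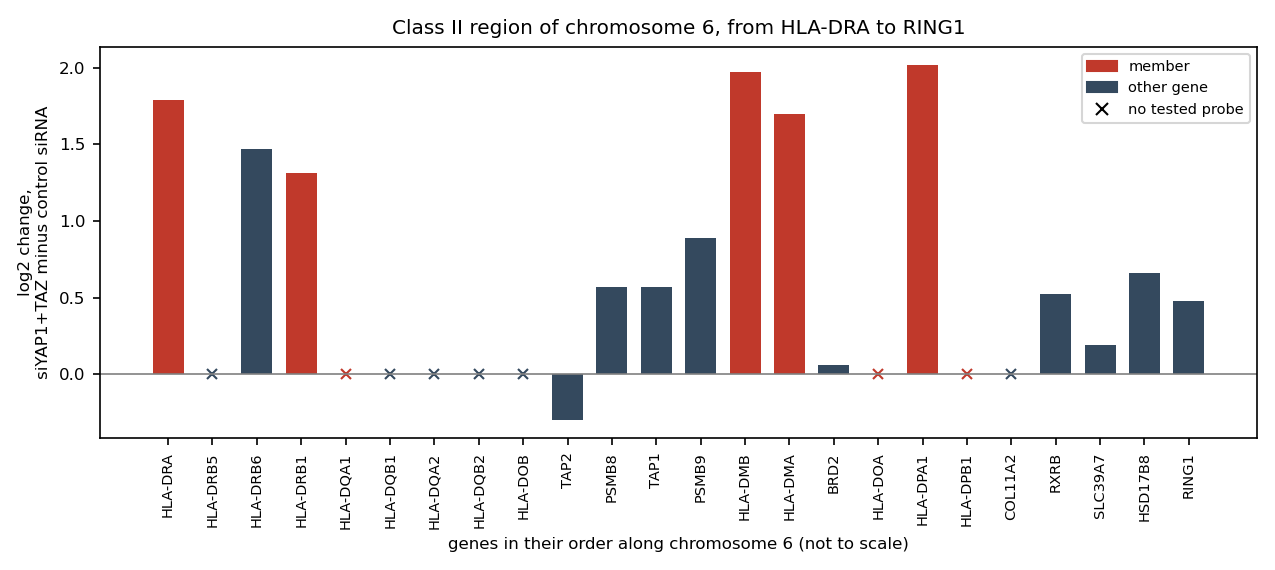
Log2 change, siYAP1+TAZ minus control siRNA, of 24 genes of the class II region in their order along chromosome 6, not to scale. Bars start at 0, red marks members and dark blue other genes, and crosses mark genes without a tested probe. HLA-DMB and HLA-DMA stand at 1.97 and 1.70 between PSMB9 at 0.89 and BRD2 at 0.06.

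Class II is typical of professional antigen-presenting cells, so markers of those cells were read beside it. Of 14 leukocyte and antigen-presenting cell markers with a probe, 4 were tested. PTPRC, the defining leukocyte antigen CD45, was below detection on every array, and so were CD86, CD80, ITGAX, CD1C, LYZ, MS4A1, CD79A and CD3E. The summed intensity of the list's 31 probes was 6329 to 7189 in knockdown cells and 7031 to 8288 in control cells, and CD68 and CD14 made up most of it. Without those genes the sum was 1716 to 1812 in knockdown cells and 2052 to 2420 in control cells, a sum that includes the background of every undetected probe. CD14, a lipopolysaccharide co-receptor of monocytes that other cells also make, rose 3.21-fold (adjusted p = 4.4e-07). CD83, a maturation marker of dendritic cells, fell 1.73-fold (adjusted p = 0.000101). CD68 and FCGR3A did not pass with their brightest probes, at -0.05 (adjusted p = 0.757) and -0.12 (adjusted p = 0.436), and the other detected CD68 probes gave 1.51 and 0.62.

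The labelled cell type was also read. Of 4 hepatocyte markers, APOA1 and TTR were below detection on all arrays. SERPINA1 rose by 1.5 on the log2 scale (adjusted p = 6.42e-07) and ALB fell by 0.48 (adjusted p = 0.00478), with ALB averaging 81.88 ± 3.32 in knockdown cells and 123.7 ± 12.2 in control cells (SD, n = 3 each), near the detection thresholds. The endothelial markers PECAM1, CDH5 and VWF were below detection on all arrays.

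The genes whose 6 values were most like those of CD74 were found by the root mean square difference on the log2 scale, after subtracting each gene's control mean, over the 6 arrays and 9796 other tested genes. They were COL6A1, a chain of collagen VI (0.121, change 2.58), RAB27B, a small GTPase of secretory vesicles (0.125, change 2.68), ZC3H12A, an RNase that degrades inflammatory mRNAs (0.129, change 2.49), ID1, an inhibitor of helix-loop-helix factors (0.136, change 2.65), and COXFA4L3 (0.15, change 2.52). The members themselves were left out of this ranking, and the measure follows the size of the change as well as the spread between arrays.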

How the data were processed

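Total RNA of 6 SK-Hep1 samples, 3 per group by the transfection in the labels, was biotin-labelled and hybridised, per the labels' protocols. The deposited intensity is 1 linear bead summary per probe and array, without control probes or detection p-values, and the submitters' processing notes name BeadStudio. The authors' deposited log2 values, used as an alternative, lay within 0.1 of quantile-normalised log2 intensities for 99.9% of values. No source used here says whether they were background-corrected.

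Intensities were corrected in R 4.3.3 with limma 3.58.1 by normexp, fitted to each array's own probes (saddle, offset 16), then quantile-normalised. This takes the low part of each distribution as background and widens changes of dim probes. A probe was detected above the mode of the array's log2 density (bandwidth 0.05) plus the mirrored spread below it, at p 0.05. Probes detected on at least 3 arrays were tested with lmFit and eBayes, two-sided, with Benjamini-Hochberg adjustment over 16091 probes and a threshold of 0.05, and the brightest detected probe stood for a gene. A group below detection on all its arrays gave a bound: the other group's mean over the mean, per array, of the higher of the probe's value and the lowest detected value. Precision is limited by 3 arrays a group. The fit was tested on simulated data of independent values, with a far smaller share of changed probes than here. Symbols came from the platform annotation, in which 30113 probes had 1 symbol. Members and lists were chosen with earlier results of these data known. The text names all members, class II chains and RFX genes with IRF1, up to 4 genes per list and direction by size of change, the siRNA targets and the 5 genes nearest to CD74. CTSH, NFYC, JAK1, JAK2, SOCS3, PTPN2, VPS41, SLC39A7, TAP2, BRD2, RING1 and RXRB were named after their values were seen. So were the lists' undetected genes and the calls against deposited means. Alternatives changed background correction, normalisation, values, filter, probe choice, replicate block and arrays left out.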

Additional observations from a re-analysis of the deposited data

How the results depend on the processing

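The counts held within 1.5 times the reported ones under no background correction, an offset of 50, the authors' values, other filters, the mean of a gene's probes and the replicate block, with the exceptions that follow. Scaling the arrays to a common median gave 1446 genes higher and 2485 lower (36.8% of calls higher, against 49.9% with quantile normalisation), and 22 list genes higher in place of 36. Leaving out 1 array at a time gave 4668 to 5106 genes past the threshold (2320 to 2581 higher, 2317 to 2525 lower) and 34 to 42 of the list genes (32 to 36 higher, 2 to 6 lower, the 6 without control replicate 3). It gave 10 to 12 of 12 member probes with separated groups, 11 without control replicate 2 and 12 without knockdown replicate 2. With all 6 arrays 14.7% of all probes on the array had knockdown above control. Groups separate more easily with 1 array fewer, and the share over all probes is not given for those fits. Nothing is therefore read from these counts. CD68 turned to 0.70 (adjusted p = 0.000116) with the mean of its probes, against -0.05 with the brightest. The cause of these shifts was not tested. Without a filter 30 of 64 list genes passed in a larger family of tests.

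Over all alternatives the change of the brightest CD74 probe ran from 2.42 to 2.64, of HLA-DRA from 1.61 to 1.87, of HLA-DRB1 from 1.16 to 1.39, of HLA-DPA1 from 1.82 to 2.04, of HLA-DMA from 1.51 to 1.78 and of HLA-DMB from 1.77 to 2.10. Same-numbered arrays of the groups did not deviate together (r -0.174, -0.136 and -0.017), so the numbers were not taken to pair samples. With the replicate block 2534 genes were higher and 2525 lower, 38 list genes passed, and the one list call lost was VPS41 (adjusted p = 0.0521). Among the list genes' values under alternatives, 763 kept their side of the threshold, 45 lost their call and 13 gained one. The 1 remaining value was that of CD68 with the mean of its probes. CD68 had no call with its brightest probe and passed there with the opposite sign, so no call changed direction. Dim probes limit the reading of CIITA, HLA-DPB1 and HLA-DOA, whose levels do not clear background.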
